A study of Mus musculus with 7 samples.

Results

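The genes of the MHC class II pathway were followed across 7 RNA-seq libraries of sorted CD8 dendritic cells from C57BL/6 mice. The set held 10 of the 27179 genes in the count tables. They were the classical chains H2-Aa, H2-Ab1 and H2-Eb1, the DM chains H2-DMa, H2-DMb1 and H2-DMb2, the DO chains H2-Oa and H2-Ob, the invariant chain Cd74 and the transactivator Ciita. Members were chosen by name, with Entrez identifiers matched to mouse symbols, and not by their values. The CpG CD103 high group held 2 libraries of cells with a high surface level of CD103, the integrin chain encoded by Itgae, from animals or cells labelled as treated with CpG, a DNA ligand of Toll-like receptor 9. The CD103 low group held 2 libraries and the CD103 negative group 3 libraries, all labelled untreated. The study's title places these cells in the setting of a systemic inflammatory syndrome that leaves CD8 dendritic cells paralysed. Nothing in the sources used here gives the tissue, the CpG dose or the delay before sorting. High CD103 and CpG came in the same libraries, so their effects cannot be told apart. Both CpG CD103 high libraries and CD103 negative replicates 1 and 2 carried a date in June 2012, and both CD103 low libraries and CD103 negative replicate 3 a date in May 2013. The step that these dates mark is not stated.

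MHC class II molecules present peptides from endosomes to CD4 T cells. In mice the I-A molecule pairs the chains of H2-Aa and H2-Ab1, and I-E pairs those of H2-Ea and H2-Eb1. C57BL/6 mice carry an inactive H2-Ea gene and make no I-E. Cd74, the invariant chain, guides new class II molecules to endosomes, where DM exchanges its last fragment for peptides and DO restrains DM. Ciita is the coactivator that class II promoters need. It binds no DNA itself but is recruited by factors of the RFX and NF-Y families at conserved X and Y boxes. In dendritic cells, maturation signals are known to shut down Ciita transcription.

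Libraries held between 4474211 and 4629181 counts, of which the 10 genes took 6.81% to 8.5%. Itgae followed the labels, with 1019 and 992 CPM (counts per 1000000 counts of the scaled library) in CpG CD103 high, 346 and 375 CPM in CD103 low, and 61.7, 62.7 and 54.3 CPM in CD103 negative libraries. The summed level of 10 markers of type 1 conventional dendritic cells, the subset that CD8 dendritic cells belong to, was 19370.3 and 19701 CPM in CpG CD103 high, 14849 and 15255 CPM in CD103 low, and 12431, 13915 and 12944 CPM in CD103 negative libraries. Naaa and Wdfy4 had the highest levels in that sum, and not every marker followed it. Cd8a had group means of 1325, 1406 and 1383 CPM, and Batf3 of 70.7, 74.9 and 69.3 CPM, in the same order. By edgeR's test given below, 7 of the 10 rose in CpG CD103 high over CD103 negative cells and none fell. That was beside 14.5% higher and 11.8% lower among all genes tested. Replicate counts within a group differed by more than sampling noise in every pair, so none was the same library deposited again. CD103 negative replicate 3 held more of 8 markers of type 2 conventional dendritic cells, at 67.3 CPM in sum against 9.64 to 32.2 CPM in the other libraries. CD103 low replicate 2 held 30.6 CPM of 7 T and NK cell markers against at most 2.50 CPM in the other libraries. The CpG CD103 high libraries were richest in 6 neutrophil and erythroid markers (sums of 33.5 and 31.8 CPM, elsewhere 1.54 to 12.9 CPM). By edgeR's test, 4 of 4 tested rose over CD103 negative cells. For 10 macrophage and monocyte markers the largest sums were 367 and 312 CPM, in CD103 low. The sums were 168 and 101 CPM for CpG CD103 high, and 263, 201 and 303 CPM for CD103 negative libraries. The part of such RNA in the class II levels was not tested.

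Of the 10 genes, 8 lie within 224.3 kb of chromosome 17 (mm10, 34092379 to 34316674), and Ciita lies on chromosome 16 (10480014 to 10531064). RefSeq promoter windows of the same build (GRCm38.p6), each from 250 bases before to 50 after a gene's start, were found for 7 of the 10 genes. H2-Ab1, Cd74 and Ciita had none in the table used. The stretches below are shown because they carry the letters through which RFX and NF-Y, and with them Ciita, are known to act. Capitals mark GNAAC, the core letters of the X box, and TGATTGG, the core of the Y box.
H2-Aa: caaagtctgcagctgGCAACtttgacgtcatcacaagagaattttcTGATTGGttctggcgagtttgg
H2-Eb1: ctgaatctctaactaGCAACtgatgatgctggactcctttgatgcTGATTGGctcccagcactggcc
H2-DMb1: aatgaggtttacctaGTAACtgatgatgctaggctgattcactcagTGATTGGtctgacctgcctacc
H2-DMb2: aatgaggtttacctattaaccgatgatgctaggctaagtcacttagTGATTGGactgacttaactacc
H2-Oa: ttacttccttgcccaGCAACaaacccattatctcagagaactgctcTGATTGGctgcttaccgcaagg
H2-Ob: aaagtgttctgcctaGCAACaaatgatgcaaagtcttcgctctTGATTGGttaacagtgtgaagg

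These stretches are written 5′ to 3′ on the gene's strand. They lie at chr17:34287852-34287919 on the minus strand for H2-Aa and on the plus strand for the others, at chr17:34305761-34305827 for H2-Eb1, chr17:34153082-34153149 for H2-DMb1, chr17:34145111-34145178 for H2-DMb2, chr17:34092288-34092355 for H2-Oa and chr17:34238803-34238867 for H2-Ob. TGATTGG began 45 bases (H2-Oa) to 92 bases (H2-DMb2) before the start that its window was taken from. For H2-DMb2 that start lies inside the annotated gene, which begins at 34143229, and both windows of H2-DMa likewise lie inside that gene, which begins at 34119693. Read on the gene's own strand, it was present in 6 of the 8 windows of these genes, against 4.01% of all 32851 windows, and 7.82% held it on either strand. The short word GNAAC alone was in 84.8% of windows on either strand. GNAAC followed by TGATTGG after 15 to 35 bases on the gene's strand stood in 5 of the 8 windows, against 0.25% of all windows. H2-DMb2 had no GNAAC at that spacing, although 59 of its 68 bases were identical to those of H2-DMb1, and neither of the windows of H2-DMa held TGATTGG. These words were chosen after the promoters had been read, and a match describes letters and not binding.

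Levels spanned more than 2 orders of magnitude when divided by transcript length. Cd74 was highest, at 21410.6 CPM per kb in CpG CD103 high, 29011.3 in CD103 low and 22790.8 in CD103 negative libraries on average. H2-Ab1, H2-Aa, H2-Eb1, H2-DMa and H2-DMb1 followed in this order in all 3 groups, and the libraries of neighbours in that order did not overlap within any group. Below them the order changed. In CpG CD103 high libraries Ciita (237.1 CPM per kb) ranked above H2-Oa (148.2). Ciita (181.1) ranked below H2-Oa (291.7) in CD103 low libraries, and in CD103 negative libraries the levels of these genes overlapped. H2-DMb2 and H2-Ob were the lowest in every group, and overlapped in all but CD103 low libraries. H2-Ea, the inactive partner of H2-Eb1, had 1 to 6 counts per library. H2-Eb1 was nevertheless abundant as a transcript, at 10735 ± 299 CPM (SD, n = 2) in CpG CD103 high, 10649 ± 185 CPM (SD, n = 2) in CD103 low and 9539.9 ± 1349.9 CPM (SD, n = 3) in CD103 negative libraries.

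**Figure D1:**
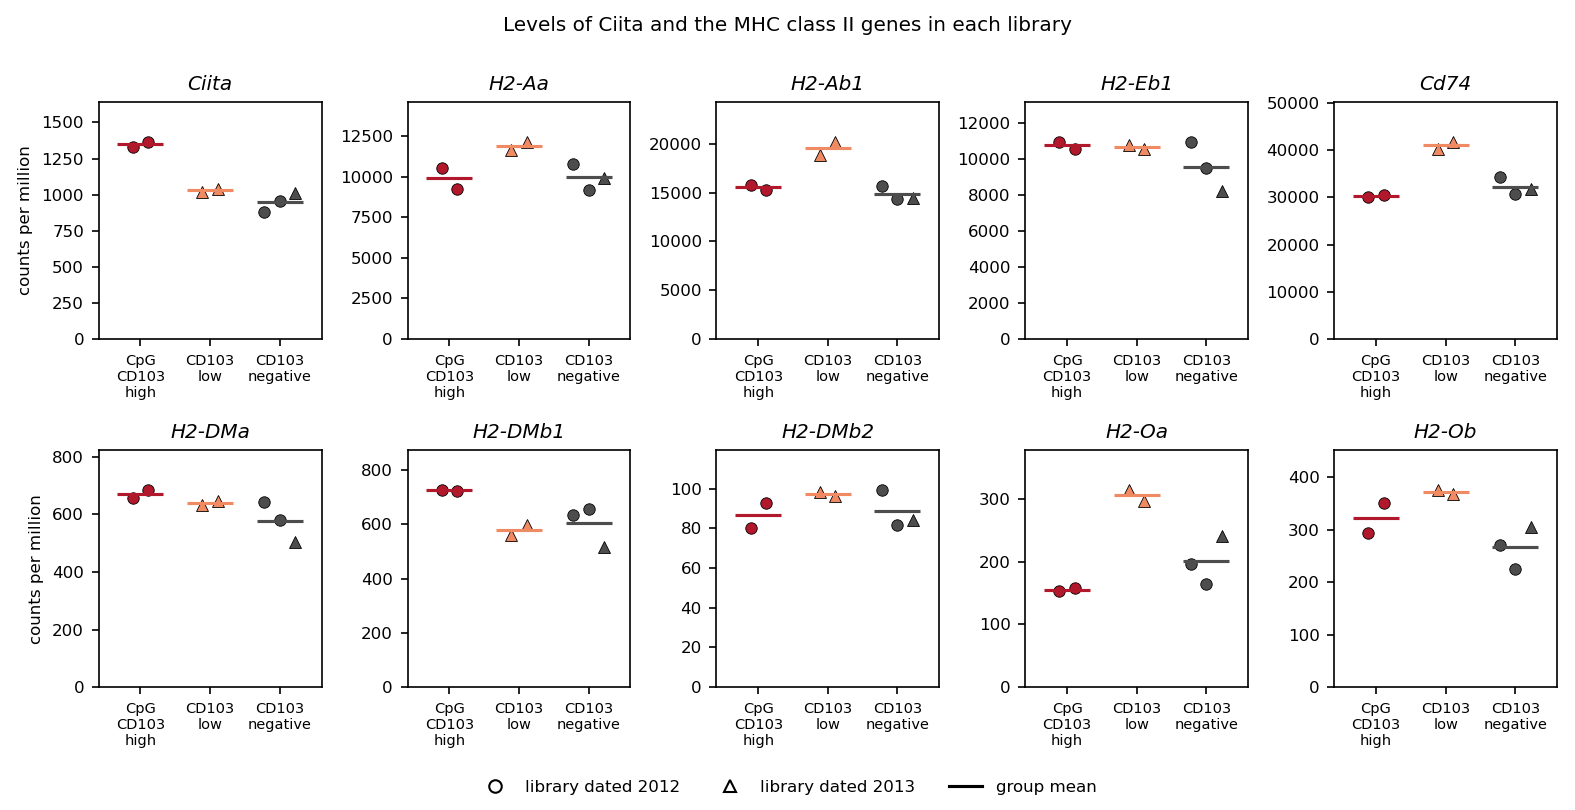
Levels of Ciita and the 9 MHC class II pathway genes in each library, in CPM on a linear axis from 0. Points are libraries (circles 2012, triangles 2013) and lines are group means. The CpG CD103 high libraries lie above all others for Ciita, H2-DMa and H2-DMb1 and below all others for H2-Oa and Cd74. The CD103 low libraries lie above all others for H2-Aa, H2-Ab1, Cd74, H2-Oa and H2-Ob.

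Ciita was the gene of the pathway that stood highest in CpG CD103 high cells relative to both untreated groups. It had 1333 and 1367 CPM in CpG CD103 high libraries, against 1021 and 1041 CPM in CD103 low and 879, 953 and 1008 CPM in CD103 negative libraries. The groups did not overlap. Against CD103 negative cells Ciita rose 1.47-fold, a log2 fold change of 0.56 ± 0.08 (SE; adjusted p = 0.000876, edgeR's quasi-likelihood test with date as a term, adjusted by Benjamini-Hochberg over 10863 genes, as in all tests that follow). The rise was 0.50 to 0.62 on the log2 scale under the alternatives tried, and it passed the test in all 15. Leaving out a CD103 low library or CD103 negative replicate 3, or keeping only the 2012 libraries, in effect took no library from this comparison. Against CD103 low cells the log2 fold change was 0.53 ± 0.12 (adjusted p = 0.0355). That call was lost with no filter on low counts (adjusted p = 0.0661) and without CpG CD103 high replicate 2 (0.0592), CD103 low replicate 1 (0.15) or 2 (0.13), or CD103 negative replicate 1 (0.0968), with log2 fold changes between 0.47 and 0.54. Between CD103 low and CD103 negative cells Ciita differed by 0.03 ± 0.10 on the log2 scale, with a 95% interval from -0.18 to 0.25 (adjusted p = 0.967). Gene counts do not tell the promoters of Ciita apart, and its 3′ end overlaps that of Dexi, which had 117 to 194 counts per library. With bulk samples, fewer cells of a type and less RNA per cell cannot be told apart.

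None of the classical class II chains passed the test in CpG CD103 high cells, where Ciita rose. Of the 10 genes, 2 (Ciita and H2-Ob) passed the test against CD103 negative cells, and 26.3% of all genes tested did (14.5% higher and 11.8% lower). The median log2 fold change of the 10 genes was 0.06, beside -0.01 over all genes tested. By their levels, the CpG CD103 high libraries lay above all CD103 negative ones for 3 of the 10 genes (Ciita, H2-DMa and H2-DMb1) and below them for 2 (H2-Oa and Cd74), beside 22.0% and 22.7% of all genes. H2-Aa, the I-A α chain, had 10525 and 9286 CPM in CpG CD103 high, 11638 and 12177 CPM in CD103 low, and 10796, 9174 and 9929 CPM in CD103 negative libraries. Its levels in CpG CD103 high and CD103 negative libraries overlapped (log2 fold change -0.01 ± 0.09, 95% interval -0.22 to 0.19, adjusted p = 0.942). The I-A β chain H2-Ab1 had 15784 and 15295 CPM in CpG CD103 high, 18866 and 20208 CPM in CD103 low, and 15696, 14293 and 14482 CPM in CD103 negative libraries. Here too the CpG CD103 high and CD103 negative libraries overlapped (0.05 ± 0.07, 95% interval -0.11 to 0.21, adjusted p = 0.627). For H2-Eb1 the libraries had 10947 and 10524 CPM in CpG CD103 high, 10779 and 10518 CPM in CD103 low, and 10924, 9468 and 8227 CPM in CD103 negative cells. CD103 negative replicate 3 was the lowest, and the log2 fold change of CpG CD103 high over CD103 negative was 0.07 ± 0.08 (95% interval -0.10 to 0.25, adjusted p = 0.518). For these 3 chains the upper ends of the intervals lay below the lower end of the interval of Ciita, 0.38 to 0.73, though the difference between genes was not itself tested.

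Within each library the level of Ciita was also set against that of I-A. For each 1000 CPM per kb of H2-Aa and H2-Ab1 together there were 10.1 and 11.2 CPM per kb of Ciita in CpG CD103 high, 6.72 and 6.46 in CD103 low, and 6.64, 8.14 and 8.26 in CD103 negative libraries. The CpG CD103 high libraries were above all untreated ones. H2-Ab1 over H2-Aa ran between 1.30 and 1.49 in all 7 libraries, with the groups overlapping.

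Cd74, on chromosome 18 (mm10, 60803849 to 60812652), was lower in CpG CD103 high than in CD103 low cells and showed no call against CD103 negative cells. It had 30076 and 30516 CPM in CpG CD103 high, 40289 and 41813 CPM in CD103 low, and 34327, 30699 and 31721 CPM in CD103 negative libraries. Both CpG CD103 high libraries lay just under the lowest CD103 negative one, and both CD103 low libraries lay above all others. Against CD103 low cells Cd74 fell by 0.47 ± 0.11 on the log2 scale (adjusted p = 0.0325). The call was lost without CD103 low replicate 1 (adjusted p = 0.123) or 2 (0.143) or CD103 negative replicate 1 (0.0878), with log2 fold changes from -0.50 to -0.39. Against CD103 negative cells the value was -0.10 ± 0.07 (95% interval -0.25 to 0.05, adjusted p = 0.295). Per length, Cd74 was 0.921 and 1.00 times the sum of H2-Aa and H2-Ab1 in CpG CD103 high libraries, against 1.04 to 1.07 times in the untreated ones.

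None of the DM chain genes, whose product loads peptides onto class II, passed edgeR's test with the date term in any comparison. H2-DMa, the DM α chain, had 655 and 685 CPM in CpG CD103 high, 634 and 645 CPM in CD103 low, and 641, 580.1 and 505 CPM in CD103 negative libraries. The CpG CD103 high libraries were above both untreated groups by less than the spread among CD103 negative libraries, and over CD103 negative the log2 fold change was 0.13 ± 0.08 (adjusted p = 0.267). The annotated start of H2-DMa overlaps Brd2, which had 1850 to 2813 counts per library. The DM β chain H2-DMb1 had 727 and 722 CPM in CpG CD103 high, 560.4 and 598 CPM in CD103 low, and 635, 656 and 518 CPM in CD103 negative libraries. Both CpG CD103 high libraries lay above all others, but the log2 fold change over CD103 negative, 0.17 ± 0.08, did not pass the test (adjusted p = 0.147). Over CD103 low cells H2-DMb1 had 0.01 ± 0.13 (adjusted p = 0.983) with the date term and 0.32 (adjusted p = 0.154) without it. It passed, as higher in CpG CD103 high cells, with neither the date term nor CD103 negative replicate 3 (0.34, adjusted p = 0.0176) and with a replicate block in place of the date (0.32, adjusted p = 0.0249). The second β chain gene, H2-DMb2, had 80.3 and 92.8 CPM in CpG CD103 high, 98.3 and 96.3 CPM in CD103 low, and 99.5, 81.9 and 84.3 CPM in CD103 negative libraries, and its groups overlapped except for CpG CD103 high and CD103 low. H2-DMb1 and H2-DMb2 are near copies. Of the 50-base stretches in their annotated transcripts, 22.7% (H2-DMb1) and 24.8% (H2-DMb2) also occurred in another gene, so the split of counts between them is uncertain.

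Of the DO chains, H2-Oa was lower and H2-Ob higher in CpG CD103 high than in CD103 negative libraries of the same date. H2-Oa, the α chain, had 153 and 158 CPM in CpG CD103 high, 315 and 297 CPM in CD103 low, and 196, 165 and 242 CPM in CD103 negative libraries. Both CpG CD103 high libraries lay below all untreated ones, yet neither the log2 fold change over CD103 negative, -0.22 ± 0.10 (adjusted p = 0.138), nor that over CD103 low, -0.55 ± 0.16 (adjusted p = 0.0672), passed the test. The value over CD103 low was -0.98 without the date term (adjusted p = 0.00737), -0.96 without CD103 negative replicate 3 as well (adjusted p = 0.000258) and -0.97 with a replicate block in place of the date (adjusted p = 0.00016), and with the date term it passed without CD103 negative replicate 2 (-0.67, adjusted p = 0.0355). H2-Oa shares its position with the noncoding BC051537, which had 2 to 9 counts per library. The β chain H2-Ob had 294 and 351 CPM in CpG CD103 high, 376 and 368 CPM in CD103 low, and 271, 226 and 306 CPM in CD103 negative libraries. Against CD103 negative cells H2-Ob rose by 0.37 ± 0.11 on the log2 scale (adjusted p = 0.0358), but CD103 negative replicate 3 lay between the CpG CD103 high libraries. The call was lost when the date term was dropped (0.27, adjusted p = 0.218), without CpG CD103 high replicate 2 (0.23, adjusted p = 0.224), without CD103 negative replicate 2 (0.25, adjusted p = 0.208), and, at an unchanged 0.37, without CD103 low replicate 1 or 2 (adjusted p = 0.0732 and 0.0727), with no filter on low counts (0.0755) and within the 2012 libraries (0.0691). Per length, H2-Oa stood at 1.33 and 1.15 times H2-Ob in CpG CD103 high, 2.13 and 2.06 times in CD103 low, and 1.84, 1.86 and 2.02 times in CD103 negative libraries. The CpG CD103 high libraries were below all others in this ratio on either date.

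The balance of DO to DM, in contrast, sorted the libraries by date. For each 100 CPM per kb of the 3 DM chains there were 17.0 and 18.1 of the 2 DO chains in CpG CD103 high libraries, 32.1 and 29.8 in CD103 low libraries, and 20.0, 17.8 and 29.8 in CD103 negative libraries. CD103 negative replicate 3, dated 2013, lay with the CD103 low libraries, and CD103 negative replicates 1 and 2 lay with the CpG CD103 high ones. Between the dates, within CD103 negative cells, H2-Oa differed by 0.42 ± 0.12 and H2-DMb1 by -0.32 ± 0.10 on the log2 scale (2013 over 2012). The 2013 side of this contrast is replicate 3 alone, the library with more markers of type 2 conventional dendritic cells. Date and the composition of that library therefore cannot be told apart. None of the 10 genes passed edgeR's test for the date, and 3.46% of all genes did. At an unadjusted p under 0.05, 4 of the 10 (H2-Eb1, H2-DMa, H2-DMb1 and H2-Oa) and 20.4% of all genes did. The 9 markers of B cells used here, which are known to express DO, summed to 577 and 548 CPM in CpG CD103 high, 626 and 635 CPM in CD103 low, and 595, 578 and 591 CPM in CD103 negative libraries. Most of that sum was Ighm, and the defining B cell gene Cd79a was at 0 in both CpG CD103 high libraries and at most 1.15 CPM elsewhere. Of the 5 B cell markers tested, 3 fell and none rose in CpG CD103 high over CD103 negative cells. Ms4a1 had -2.71 ± 0.21 (adjusted p = 4.61e-05), Cd22 -3.01 ± 0.26 (adjusted p = 8.02e-05) and Cd79b -2.39 ± 0.60 (adjusted p = 0.0166, not called by DESeq2), while Fcrla had 0.00 ± 0.14 (adjusted p = 0.987) and Ighm 0.16 ± 0.08 (adjusted p = 0.186). The part of B cell RNA in the levels of H2-Oa and H2-Ob was not tested.

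**Figure D2:**
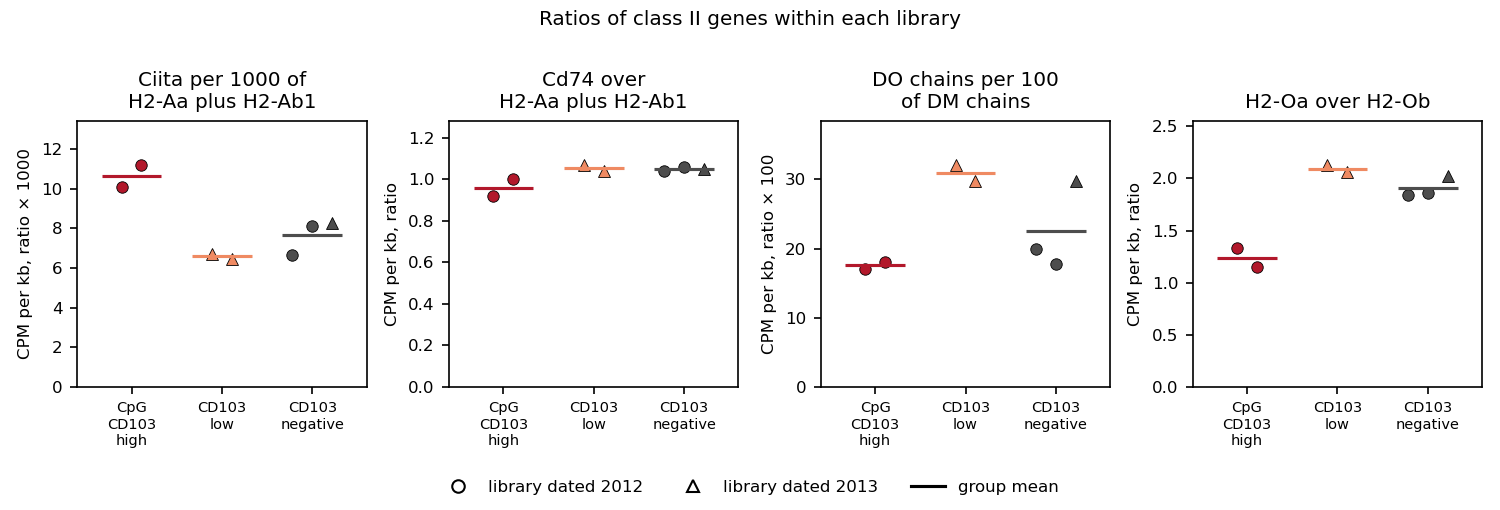
Ratios within each library, from CPM per kb of transcript: Ciita per 1000 of H2-Aa plus H2-Ab1, Cd74 over the same sum, the DO chains per 100 of the DM chains, and H2-Oa over H2-Ob. Points are libraries (circles 2012, triangles 2013) and lines are group means; Ciita over I-A is highest and H2-Oa over H2-Ob lowest in the CpG CD103 high libraries, while DO over DM is near 30 in the 3 libraries dated 2013 and at most 20.0 in the 4 dated 2012.

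In CD103 low cells all 10 genes had a positive log2 fold change over CD103 negative cells, as did 52.3% of all genes tested. None of the 10 genes passed edgeR's quasi-likelihood test, and 0.138% of all genes did. At an unadjusted p under 0.05 the count was 6 of the 10 genes (H2-Aa, H2-Ab1, H2-Eb1, H2-DMa, H2-Oa and Cd74), beside 7.34% of all genes. The median over the 10 genes was 0.31, beside 0.01 over all genes. H2-Ab1 had the largest value, 0.43 ± 0.09 (95% interval 0.24 to 0.63, adjusted p = 0.111). The values for H2-Eb1 (0.37 ± 0.10, adjusted p = 0.255) and Cd74 (0.37 ± 0.08, adjusted p = 0.178) came next. In this fit the CD103 low libraries were in effect compared with CD103 negative replicate 3 alone. By their levels, the CD103 low libraries lay above all 3 CD103 negative libraries for 6 genes (H2-Aa, H2-Ab1, Cd74, H2-Oa, H2-Ob and Ciita), beside 16.2% of all genes, and below them for none, beside 12.2%. With limma voom 0 and with DESeq2 1 of the 10 genes passed (H2-Ab1, adjusted p = 0.0237), and with neither the date term nor CD103 negative replicate 3, 4 did (H2-Ab1, Cd74, H2-Oa and H2-Ob). The log2 fold change of H2-DMb1, 0.16 with the date term, was -0.06 without it. Among the alternatives the lowest value was 0.04 for both H2-Eb1 and H2-DMa, against 0.31 for Cd74 and 0.35 for H2-Ab1.

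Against CD103 low cells, the CpG CD103 high cells showed Ciita higher and Cd74 lower, 2 calls among the 10 genes by edgeR with the date term and by DESeq2, beside 6.22% of all genes by edgeR (3.44% higher, 2.78% lower). The median of the 10 genes was -0.27, beside -0.02 over all genes. H2-Ab1 missed the threshold at -0.38 ± 0.11 (adjusted p = 0.0758) but was called by limma voom, beside Ciita and Cd74, at the same -0.38 (adjusted p = 0.0449), and H2-Aa had -0.27 ± 0.15 (adjusted p = 0.288). By their levels, the CpG CD103 high libraries lay below the CD103 low ones for 6 of the 10 genes and above them for 3, beside 30.6% and 28.1% of all genes. These groups do not share a date, and the fit sets them against each other only through the CD103 negative libraries, which all 3 comparisons share. Without the date term 4 of the 10 genes passed, namely Ciita (higher) and H2-Oa, H2-Ab1 and Cd74 (lower).

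**Figure D3:**
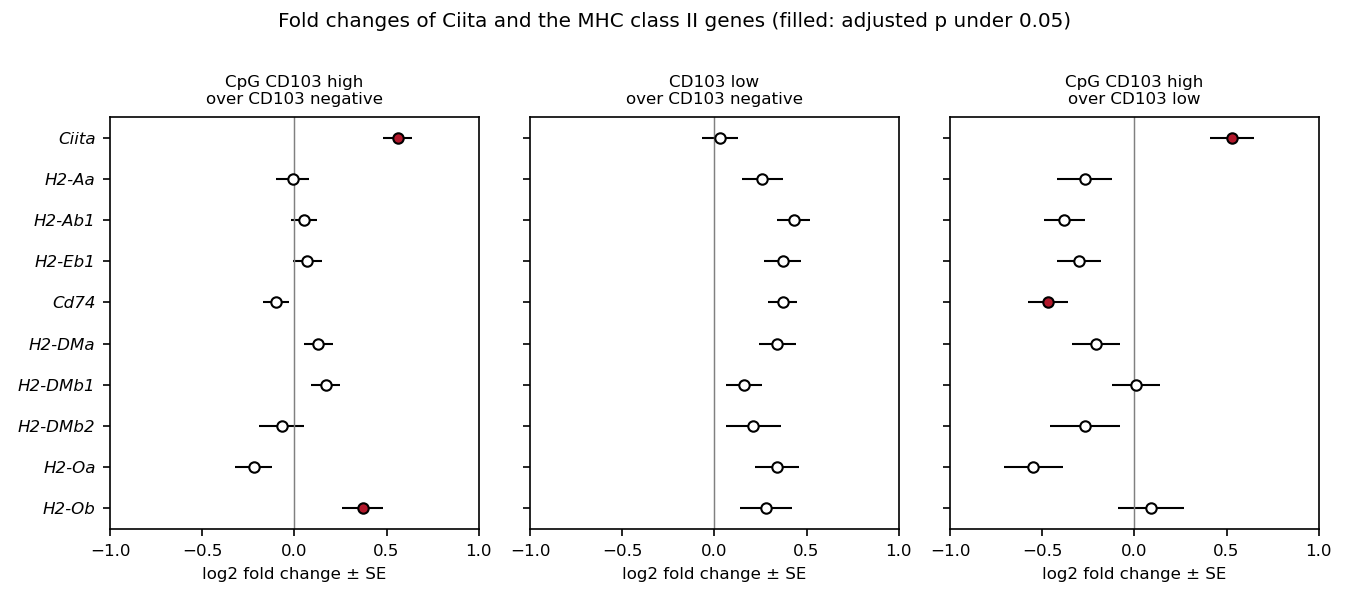
Log2 fold changes ± SE of Ciita and the class II genes in the 3 comparisons, from the edgeR fit with a date term. Filled points passed an adjusted p under 0.05; Ciita is filled in both comparisons of CpG CD103 high cells, H2-Ob in that against CD103 negative and Cd74 in that against CD103 low, and none is filled for CD103 low over CD103 negative.

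H2-Eb2, a class II β chain gene beside H2-Eb1 whose promoter holds the same pair of words, was lower in CpG CD103 high than in untreated cells. It had 30.2 and 29.6 CPM in CpG CD103 high, 67.4 and 52.6 CPM in CD103 low, and 53.1, 48.5 and 49.8 CPM in CD103 negative libraries. The CpG CD103 high libraries lay below all others. H2-Eb2 fell by 0.77 ± 0.15 on the log2 scale against CD103 negative (adjusted p = 0.00457, passed in all 15 alternatives, with the limit given for Ciita) and by 1.04 ± 0.23 against CD103 low cells (adjusted p = 0.0282). The second call was lost with DESeq2 (adjusted p = 0.0832), with no filter on low counts (0.0733) and without CpG CD103 high replicate 2, CD103 low replicate 1 or CD103 negative replicate 1 (0.0592 to 0.111). Of the genes that lie among the class II genes on chromosome 17, 4 of the 5 tested rose in CpG CD103 high over CD103 negative cells, beside 14.5% of all genes. They were the antigen peptide transporter genes Tap1 (0.83, adjusted p = 0.000118) and Tap2 (0.62, adjusted p = 0.000538), the immunoproteasome gene Psmb9 (0.46, adjusted p = 0.00305) and the chromatin gene Brd2 (0.53, adjusted p = 0.00233). The immunoproteasome gene Psmb8 had -0.05 ± 0.08 (adjusted p = 0.705).

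Among the factors that bind class II promoters, 1 of 7 tested rose and none fell in CpG CD103 high over CD103 negative cells (median -0.04, beside -0.01 over all genes), with 14.5% of all genes higher and 11.8% lower. It was Rfxank, a subunit of RFX, with 12.9 and 14.1 CPM in CpG CD103 high, 11.4 and 12.2 CPM in CD103 low, and 7.90, 8.41 and 13.2 CPM in CD103 negative libraries (0.72 ± 0.20, adjusted p = 0.0256). CD103 negative replicate 3 overlapped the CpG CD103 high libraries. The call was lost with DESeq2 (0.72, adjusted p = 0.281), which called none of the 7, without the date term (0.45, adjusted p = 0.241), without CpG CD103 high replicate 1 (adjusted p = 0.0509) or 2 (0.111) and without CD103 negative replicate 1 (0.106) or 2 (0.0753).

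Of the regulators of Ciita, 4 of 11 tested rose and 2 fell in CpG CD103 high over CD103 negative cells (median 0.02), beside the same 14.5% and 11.8% of all genes. Irf1, an interferon-induced activator of Ciita, had 315 and 285 CPM in CpG CD103 high, 175 and 164 CPM in CD103 low, and 158, 171 and 191 CPM in CD103 negative libraries. Both CpG CD103 high libraries lay above all others, and Irf1 rose by 0.87 ± 0.09 on the log2 scale (adjusted p = 0.000212). Socs1, a feedback inhibitor of interferon signalling, rose by 1.88 ± 0.24 (adjusted p = 0.00059), to 28.2 and 23.1 CPM in CpG CD103 high, against 7.04 and 9.65 CPM in CD103 low and 8.34, 5.60 and 8.30 CPM in CD103 negative libraries. Irf8 rose by 0.39 ± 0.08 (adjusted p = 0.00522) and Jak2 by 0.38. The interferon-γ receptor chains Ifngr1 and Ifngr2 had 0.06 ± 0.10 (adjusted p = 0.684) and 0.02 ± 0.09 (adjusted p = 0.902), and the receptor-bound kinase Jak1 had -0.18 ± 0.09 (adjusted p = 0.158). The genes that fell were Irf4 (-1.82 ± 0.38, adjusted p = 0.00713, not called by DESeq2) and Tcf4 (-1.31 ± 0.20, adjusted p = 0.00134), the defining factor of plasmacytoid dendritic cells. Irf4 had few counts, with 6 in each CpG CD103 high library, 30 and 26 in CD103 low, and 24, 20 and 66 in CD103 negative libraries. Tcf4 had 12.0 and 14.3 CPM in CpG CD103 high, 33.4 and 24.6 CPM in CD103 low, and 29.2, 36.2 and 64.1 CPM in CD103 negative libraries. The 8 markers of those cells, Tcf4 among them, summed to 227 and 201 CPM in CpG CD103 high, 172 and 159.5 CPM in CD103 low, and 176, 180.4 and 233 CPM in CD103 negative libraries. Of the 5 tested, 1 rose and 1 fell. Pacsin1 rose by 2.27 ± 0.18 (adjusted p = 4.61e-05), with 61.0 and 56.5 CPM in CpG CD103 high, 22.9 and 26.4 CPM in CD103 low, and 9.92 to 14.5 CPM in CD103 negative libraries, and Tcf4 was the one that fell. Siglech, another of these markers, was at 19.2 CPM in CD103 negative replicate 3 and at most 4.77 CPM in the other libraries. Against CD103 low cells Irf1 (1.04 ± 0.14, adjusted p = 0.00474) and Socs1 (1.87 ± 0.42, adjusted p = 0.0315) were the regulators that passed by edgeR. Jak2 missed the threshold at 0.45 ± 0.12 (adjusted p = 0.0607) but was called by limma voom, though not by DESeq2. The Socs1 call was lost without any 1 of 4 libraries (CpG CD103 high replicate 1, CD103 low replicate 1 or 2, CD103 negative replicate 2), with adjusted p from 0.0522 to 0.124, with DESeq2 (0.0979) and with no filter on low counts (0.0786).

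In the list of class II processing, traffic and turnover, 2 of 13 tested rose and 3 fell in CpG CD103 high over CD103 negative cells (median -0.05), again beside 14.5% and 11.8% of all genes, so the share that rose was near that over all genes. Marchf8, a membrane ubiquitin ligase of the family that marks class II molecules for degradation, had 10.4 and 6.95 CPM in CpG CD103 high, 1.36 and 1.84 CPM in CD103 low, and 1.32, 1.72 and 0.426 CPM in CD103 negative libraries. Over CD103 negative cells it rose by 2.49 ± 0.41 on the log2 scale (adjusted p = 0.00188), although with few counts. Over CD103 low cells Marchf8 had 0.65 ± 1.28 and did not pass the test (adjusted p = 0.8). Marchf1, the ligase known to ubiquitinate class II in dendritic cells and named here after its values were seen, had 0.45 ± 0.13 (adjusted p = 0.0288), and the call was lost in 7 of 15 alternatives. Its libraries had 625 and 459 CPM in CpG CD103 high, 442 and 406 CPM in CD103 low, and 402, 392 and 339 CPM in CD103 negative cells, and without CpG CD103 high replicate 1 the value was 0.21 (adjusted p = 0.169). Lgmn, an endosomal protease that cuts the invariant chain, fell by 0.63 ± 0.14 (adjusted p = 0.00864), the tetraspanin Cd63 of late endosomes by 2.24 ± 0.26 (adjusted p = 0.000376) and the hyaluronan receptor Cd44 by 0.76 ± 0.10 (adjusted p = 0.000777). Against CD103 low cells 1 of 13 rose and 3 fell, beside 3.44% and 2.78% of all genes. Ctsl, a lysosomal protease, had 2.72 ± 0.57 (adjusted p = 0.0234), with only 9 to 35 counts per library and 7.45 CPM in CD103 negative replicate 3, and -1.69 ± 0.44 for CD103 low over CD103 negative (adjusted p = 0.242). Cd44 (-0.91 ± 0.17, adjusted p = 0.0149), Cd63 (-1.72 ± 0.38, adjusted p = 0.0304) and the tetraspanin Cd9 (-0.58 ± 0.13, adjusted p = 0.0352) fell. Each of these 4 calls was lost without CD103 low replicate 1 or 2, with adjusted p from 0.0587 to 0.147, and those of Ctsl, Cd63 and Cd9 also without some of the other libraries. DESeq2 lost Ctsl (adjusted p = 0.156), Cd63 (0.268) and Cd9 (0.0558), and these 3 were also lost with no filter on low counts (0.0502 to 0.0733). Without the date term Ctsl was 1.39 (adjusted p = 0.17) and Cd9 -0.21 (adjusted p = 0.393).

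None of the genes tested in these 3 lists passed edgeR's test for CD103 low over CD103 negative cells. At an unadjusted p under 0.05 the counts were 0 of 7 promoter factors, 2 of 11 regulators (Irf4 and Tcf4) and 3 of 13 processing genes (Ctsl, Cd9 and Ifi30). DESeq2 called 1 of these genes (Cd9) and limma voom 0. The most abundant of each had -0.07 ± 0.11 (Nfya, a subunit of NF-Y, adjusted p = 0.933), 0.14 ± 0.09 (Irf8, adjusted p = 0.813) and -0.29 ± 0.12 (Ifi30, a lysosomal thiol reductase, adjusted p = 0.641). Ifi30 was called as lower in CD103 low cells with neither the date term nor CD103 negative replicate 3 (-0.51, adjusted p = 0.0157) and with a replicate block in place of the date (-0.48, adjusted p = 0.0167). The medians of the lists were -0.07, 0.01 and 0.07, beside 0.01 over all genes. For the promoter factors no gene passed in CpG CD103 high over CD103 low cells by edgeR, DESeq2 or limma voom, 1 (Rfxank) had an unadjusted p under 0.05 by edgeR, and Nfya had 0.03 ± 0.15 (adjusted p = 0.919).

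**Figure D4:**
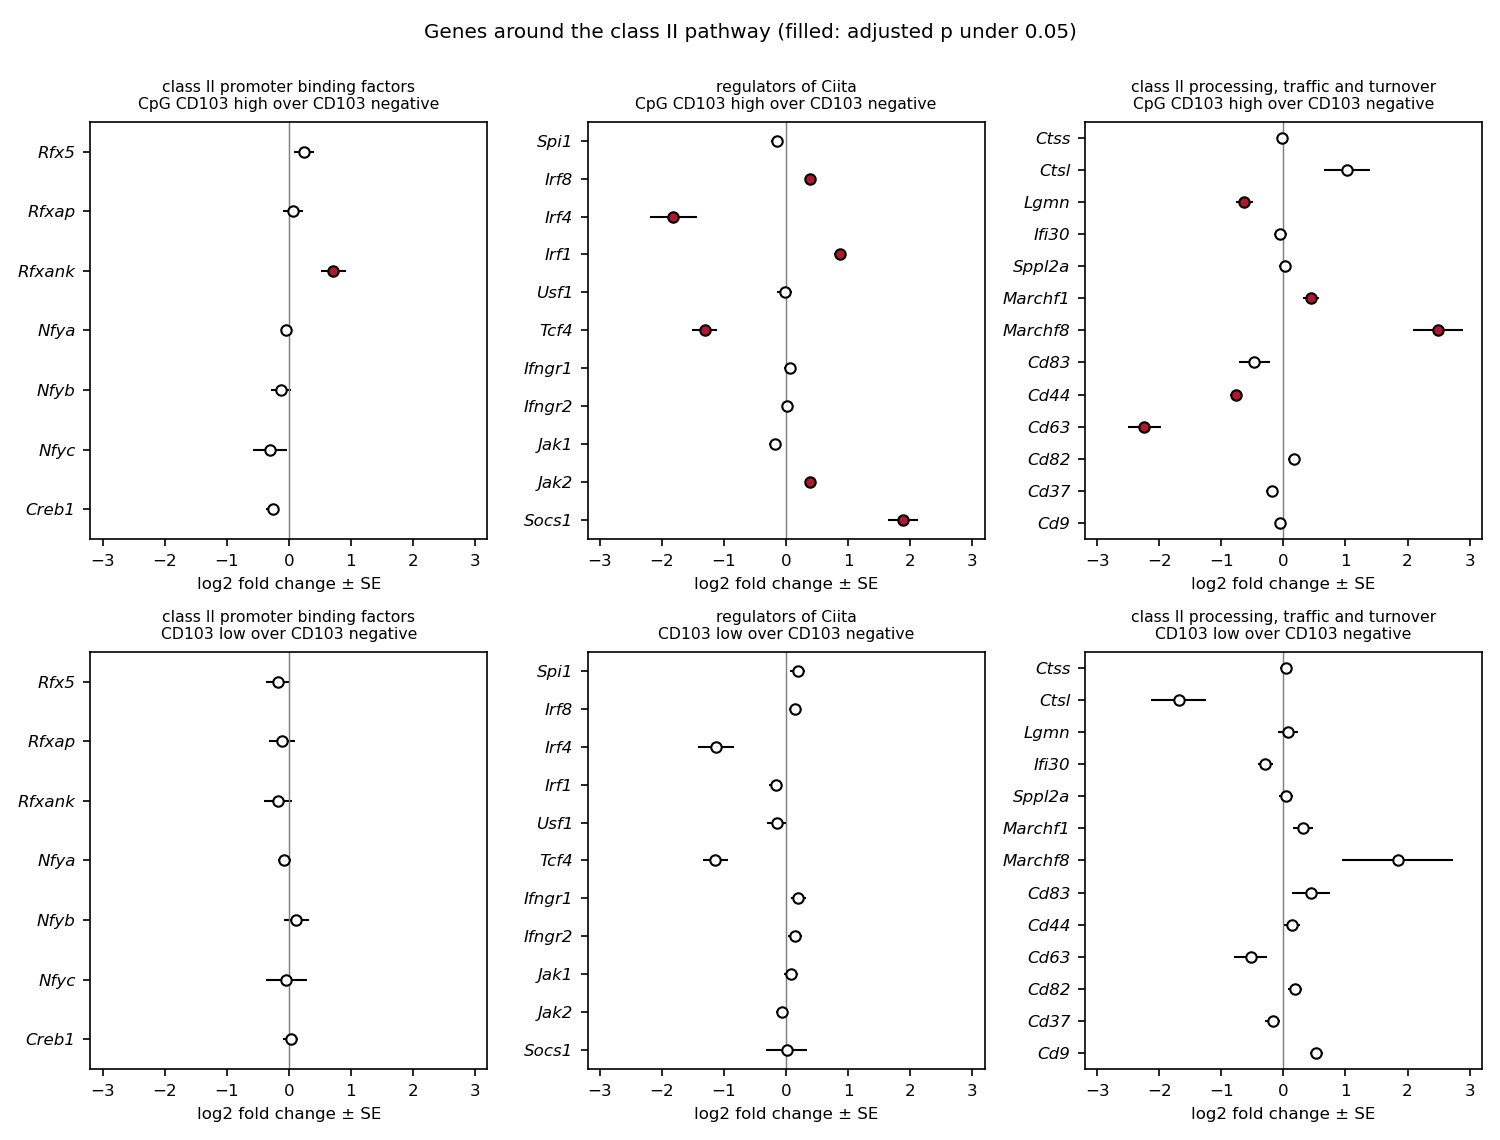
Log2 fold changes ± SE of 3 lists of genes around the class II pathway (columns), for CpG CD103 high over CD103 negative (top) and CD103 low over CD103 negative (bottom). Filled points passed an adjusted p under 0.05; these are 1, 6 and 5 genes in the top row and none in the bottom row.

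Profiles over the 7 libraries, as log2 CPM centred on each gene's mean, were compared for the 7208 genes whose average log2 CPM was 4 or more. The genes nearest Ciita were Ap4e1, an adaptor subunit of vesicle traffic, at a root-mean-square difference of 0.028, then Ankrd27 (0.034), Stk25 (0.044), Kdm3a (0.047) and Polr3a (0.051). Among the class II genes, H2-DMb1 was the closest to that profile at 0.178 and H2-Oa the farthest at 0.54. The 5 named genes are the smallest distances among 7208 genes, and no typical distance was worked out. Whether the class II genes lay unusually far is therefore not shown. Counting error was not taken into account. The profile of H2-Ab1 was closer to those of its partners. Cd74 lay at 0.07 and H2-Aa at 0.076 from it, beside 0.052 to 0.067 for its 5 nearest genes outside the pathway, Sh2b2, Tmem51, Slc9a9, Rnasek and Klri1. Of the remaining members H2-DMb2 lay at 0.137, H2-Eb1 at 0.16, H2-Ob at 0.166, H2-DMa at 0.17, H2-DMb1 at 0.272, Ciita at 0.29 and H2-Oa at 0.295. These distances describe 7 libraries that share dates and groups.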

How the data were processed

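Raw read counts per gene were deposited by the authors, 1 table per sample, in whole numbers and not normalized, per the file headers and values. CASAVA, Subread 1.4.6, featureCounts and mm10 are the tools and build listed, per the submitters' processing notes. Not given in the sources used here are the gene annotation, the strand setting and the handling of multiply mapping reads, so reads shared between near copies or overlapping genes may be split or lost. A series table with 7 columns that match no sample label was not used.

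Of 27179 Entrez identifiers, 25275 (93.0%) matched RefSeq symbols of the same build, and the others held 0.533% of counts. CPM are on library sizes scaled with TMM (trimmed mean of M-values) factors, with SD over libraries of both dates. On that scale 3 counts equal 0.638 to 0.690 CPM, a limit that covers counting error only. edgeR 4.0.16 in R 4.3.3 kept 10863 genes by filterByExpr, all 10 members among them, and a quasi-likelihood model of group and date was fitted to all 7 libraries on 3 residual degrees of freedom. With the date term CpG CD103 high is compared with CD103 negative replicates 1 and 2, CD103 low with replicate 3, and CpG CD103 high over CD103 low is the difference of these. Genes were called at an adjusted p under 0.05, and the SE is the log2 fold change over the square root of F.

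The design text calls samples of a population biological replicates. Deviations of same-numbered libraries correlated at 0.267 between CpG CD103 high and CD103 negative, which share a date, at -0.053 between CpG CD103 high and CD103 low and at -0.026 between CD103 negative and CD103 low. No label ties the numbers to a shared source, and they were not used as pairs. The CD103 low libraries carried another date than the same-numbered libraries of the other groups. Their correlations therefore say little about a pairing among the 2012 libraries, and no fit held both such a pairing and the date.

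The members and lists were chosen with earlier results of these data known. Of the list genes, 2 are not reported here and were left out of the counts, medians and sums of their lists. The text names every member, Itgae, up to 4 called genes of each list per comparison by adjusted p or the most abundant where none was called, genes between the members on the chromosome, and the 5 genes nearest Ciita and H2-Ab1. Irf4, Jak2, Marchf1, Mir5107 and single markers were added once their values had been seen. Alternatives were other scaling, filters, DESeq2 1.42.0, limma 3.58.1 voom, no date term, a replicate block, each date alone and leaving out each library.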

Additional observations from a re-analysis of the deposited data

How the results depend on the processing

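For CpG CD103 high over CD103 negative, Ciita passed under all 15 alternatives. Leaving out a CD103 low library or CD103 negative replicate 3 in effect took no library from this comparison. The number of genes called, 2860, was 1589 without the date term, 1459 with DESeq2 and 1738 to 2861 with 1 library left out. The number of the 10 class II genes called, 2, was 1 (Ciita) without the date term, with no filter on low counts and within the own date, and 1 to 2 with 1 library left out. Their median, 0.06, ran from -0.02 to 0.13 with 1 library left out, being -0.02 without CD103 negative replicate 2. Signs that turned with 1 library left out, all far from the threshold, were those of H2-Aa (range -0.12 to 0.11, turned to 0.06 and 0.11), H2-Ab1 (-0.01 to 0.12), H2-Eb1 (-0.03 to 0.18) and H2-DMb2 (-0.20 to 0.08, turned to 0.03 and 0.08).

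For CD103 low over CD103 negative, the 15 genes called became 1 with no filter, 7 with a stricter filter, 40 with DESeq2 (which gave 6318 genes no adjusted p), 187 within the own date, 1 to 27 with 1 library left out, and 1035 without both CD103 negative replicate 3 and the date term. The class II genes called, 0, became 1 with DESeq2, 3 within the own date (H2-Ab1, H2-Eb1 and Cd74) and 4 without both, and stayed 0 with 1 other library left out. Their median, 0.31, was 0.21 without the date term and 0.18 without both. It was 0.30 to 0.32 with 1 library other than CD103 negative replicate 3 left out. With the date term CD103 low is in effect compared with that replicate alone. Dropping a CpG CD103 high library or another CD103 negative library therefore took no library from this comparison. The narrow range thus tests little beyond the CD103 low libraries. Without the date term H2-DMb1 was -0.06, Nfya 0.01 and Irf8 -0.11, and without CD103 negative replicate 3 as well they were -0.18, 0.03 and -0.25.

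For CpG CD103 high over CD103 low, the 676 genes called became 263 with no filter, 382 with DESeq2, 115 to 748 with 1 library left out, and 1668 without both CD103 negative replicate 3 and the date term. The class II genes called, 2, became 4 without the date term, 1 (Cd74) with no filter, 0 to 3 with 1 library left out and 5 without both (Ciita, H2-Oa, H2-DMb1, H2-Ab1 and Cd74), and their median, -0.27, ran from -0.39 to -0.14 (-0.17 without both). Without the date term H2-Eb1 turned to 0.01, H2-DMa to 0.07, H2-Ob to -0.21 and Nfya to -0.09. Without both they turned to 0.03, 0.09, -0.19 and -0.08. With 1 library left out the ranges were -0.04 to 0.05 for H2-DMb1 (turned to -0.04, -0.02 and -0.00), -0.04 to 0.22 for H2-Ob (turned to -0.04 without CpG CD103 high replicate 2 or CD103 negative replicate 2) and -0.05 to 0.12 for Nfya (turned to -0.05).

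Replicate numbers were not taken to pair the samples. The fit with a replicate block and no date term called 3013 genes for CpG CD103 high over CD103 negative. For CD103 low over CD103 negative it called 1175 genes and 4 class II genes (H2-Oa, H2-Ob, H2-Ab1 and Cd74). For CpG CD103 high over CD103 low it called 1775 genes and 6 class II genes (Ciita, H2-Oa, H2-DMb1, H2-Ab1, H2-Aa and Cd74). Under this block H2-DMb1 was -0.16, Nfya 0.06 and Irf8 -0.22 for CD103 low over CD103 negative, and H2-Eb1 0.01, H2-DMa 0.07, H2-Ob -0.21 and Nfya -0.09 for CpG CD103 high over CD103 low. The cause of these moves was not tested. Depth limits Marchf8, with 2 to 47 counts per library, and H2-Ea, with 1 to 6, while the number of libraries, 2 or 3 a group, limits the precision for the abundant class II genes.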

Other observations

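Mir5107, a microRNA annotated within the 3′ part of Cd74 on chromosome 18 (mm10, 60812076 to 60812163), had 27 to 224 counts per library. Its levels were 49.7 and 37.0 CPM in CpG CD103 high, 18.2 and 35.4 CPM in CD103 low, and 10.3, 5.82 and 22.3 CPM in CD103 negative libraries. The groups overlapped only between CD103 low and CD103 negative libraries, and the log2 fold change of CpG CD103 high over CD103 negative was 2.42 ± 0.34 (edgeR's quasi-likelihood test, adjusted p = 0.000853), while Cd74 itself had -0.10 ± 0.07. The sources used here do not say how reads of the host transcript were assigned to this feature, so the value is that of the feature as counted and not of the mature microRNA.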
